A study of Apis mellifera ligustica with 11 samples.

Results

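Gene expression in the brain of Italian honeybees (Apis mellifera ligustica) was compared between libraries labelled 30 days after fluvalinate exposure and 1 day before it. The time label does not say whether the 30 days run from the start or the end of exposure. The comparison rests on 6 of the 11 libraries analysed, 3 titled D30 and 3 titled CK, which the labels assign to these times. It covers the 7830 of 9974 genes in the table whose mean reached 1 FPKM, a level scaled by transcript length and by the mapped fragments of a library, over all 11 libraries. The day 30 libraries came from the test set, which was exposed at the normal dose with mite treatment repeated every 7 days, and the before-exposure libraries carry the control title. No genotype, age or sex of the bees is labelled beyond the subspecies, and all groups share the removal of pigments and of the royal jelly glands from the brain. The 2 libraries of day 10 and 3 libraries of day 20 entered the same fit and serve below as further points in time. Unexposed bees kept to day 30 were not analysed here, so exposure, elapsed time and the set of bees cannot be told apart. Whether replicate libraries stem from different colonies or pools of bees is not labelled, so p-values reflect the spread among the libraries, which may be technical.

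Fluvalinate is a pyrethroid acaricide that is placed in hives against Varroa mites, and pyrethroids hold voltage-gated sodium channels of nerve cells open. Insects break such compounds down with cytochrome P450 enzymes, esterases and glutathione S-transferases. In adult worker bees, juvenile hormone and the yolk protein vitellogenin are linked to the passage from nursing inside the hive to foraging outside it, with vitellogenin typically high in nurses and juvenile hormone typically high in foragers.

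Of the neuron markers 12 of 12 averaged at least 1 FPKM over the 6 libraries. Their summed level was between 622.8 and 802.6 FPKM at day 30 and between 755.8 and 851.8 FPKM before exposure. Markers of other tissues reached 1 FPKM as well, so this level does not tell brain from other tissue. They were 11 of 11 photoreceptor, 13 of 15 hypopharyngeal gland, 8 of 10 fat body and 23 of 32 muscle markers. Major royal jelly proteins 1 to 7, products of the hypopharyngeal gland, summed to 4233.6, 36823.3 and 9048.9 FPKM in day 30 replicates 1, 2 and 3, against 4661.5, 12862.5 and 6993.6 FPKM in before-exposure replicates 1, 2 and 3. Day 30 replicate 2 was thus the highest in gland transcripts, and day 30 replicate 1 stood apart on the second principal component, which held 17.7% of the variance over all 11 libraries. Relative to the before-exposure mean, the median gene lay 0.15 higher in day 30 replicate 1, 0.0106 higher in replicate 3 and 0.0959 lower in replicate 2, on the log2 scale. Across genes, libraries of the same group correlated with r between 0.949 and 0.978, and libraries of different groups between 0.945 and 0.982, so the groups were not more alike within than between.

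No gene passed an adjusted p of 0.05 between day 30 and before exposure (0.0% of 7830), and the smallest adjusted p was 0.101 in limma's test on log2(FPKM + 1). At an unadjusted p under 0.05, 227 genes (2.9%) were higher and 335 genes (4.28%) were lower at day 30, which together is 7.18% of the genes tested. These counts leaned on single libraries: the 227 became 106 without before-exposure replicate 1, 144 without day 30 replicate 1, 361 without day 30 replicate 3, 410 without day 30 replicate 2 and 480 without before-exposure replicate 2, and the 335 became 209 without before-exposure replicate 3. The libraries of the groups did not overlap in 264 genes (3.37%) that were higher and 550 genes (7.02%) that were lower at day 30. Of these, 24 higher and 13 lower genes differed at least 2-fold between group means after 1 FPKM was added to each mean. The median gene was 0.03 higher at day 30 (quartiles -0.12 and 0.18 on the log2 scale), and the 95% interval of a gene's difference reached a median of 0.40 to either side. A difference much smaller than that could not be resolved for a typical gene with 3 libraries a group. That interval is not adjusted for the 7830 genes tested, so a call needed a larger difference still. The values below therefore describe the genes nearest the threshold and the gene groups around them, and none of their differences is a call.

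**Figure D1:**
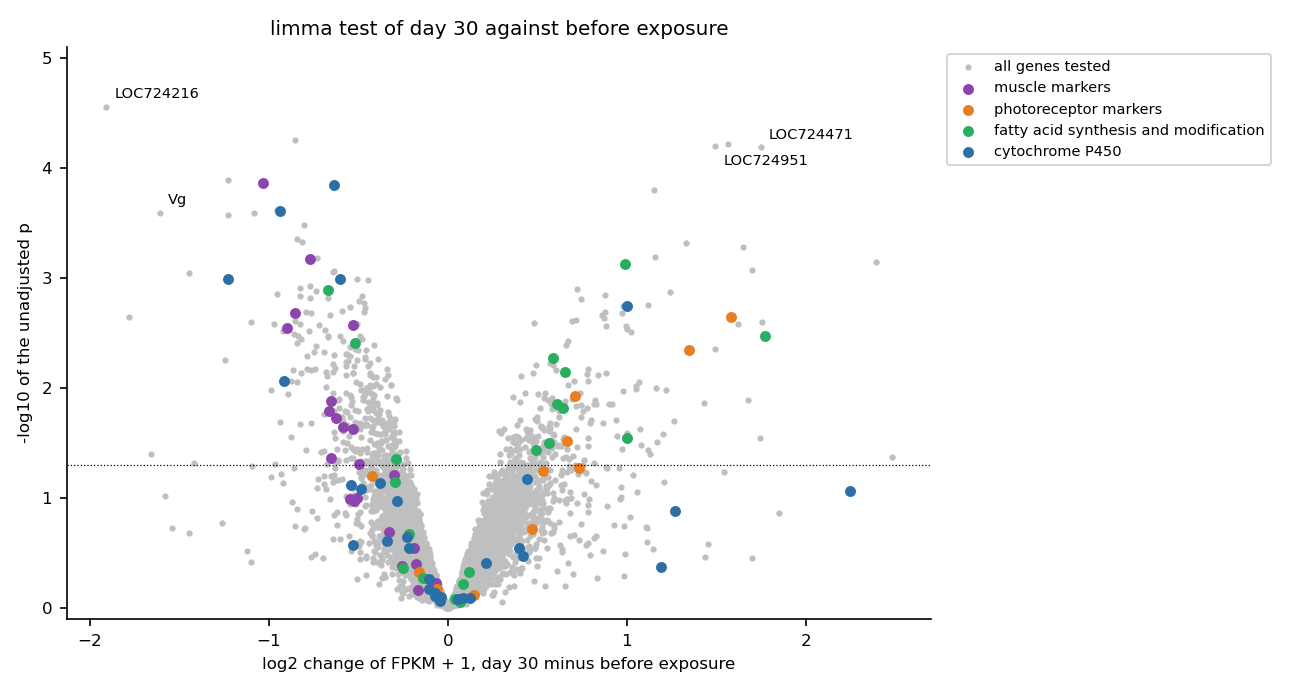
Each point is 1 of the 7830 genes, with its log2 change of FPKM + 1 (day 30 minus before exposure) on the x axis and -log10 of the unadjusted p of limma's test on the y axis, and coloured points are members of 4 gene lists. The dotted line marks an unadjusted p of 0.05. Muscle markers lie on the left of 0, photoreceptor markers and fatty acid genes mostly on the right, and no point reaches an adjusted p of 0.05.

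The smallest p of all genes belonged to LOC724216, juvenile hormone acid O-methyltransferase, the enzyme of the last steps of juvenile hormone synthesis. It had 10.45, 9.04 and 14.79 FPKM at day 30, against 38.29, 46.41 and 50.69 FPKM before exposure. The groups lay far apart, and the log2 difference was -1.91 ± 0.29 (SE, 95% interval -2.55 to -1.27, adjusted p = 0.101). In a fit of these 6 libraries alone, which takes the spread from fewer libraries, its adjusted p was 0.0227. LOC724216 was also called with array weights. It was not called with another scaling or pseudocount, the gland covariate, the replicate block or any single library left out. Juvenile hormone esterase (Jhe), which degrades the hormone, had 3.16, 2.75 and 2.02 FPKM at day 30 against 3.4, 6.4 and 4.09 FPKM before exposure. Kruppel homolog 1 (Kr-h1), a transcription factor that responds to the hormone, had 51.35, 51.47 and 43.71 FPKM at day 30 against 13.25, 45.41 and 35.22 FPKM before exposure, where before-exposure replicate 2 lay within the day 30 range and replicate 1 far below it. Of the 18 measured genes of hormone synthesis and response, 1 was higher and 2 were lower at an unadjusted p under 0.05. Among all genes 2.9% were higher and 4.28% lower. The median log2 difference of the 18 was -0.17.

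Vitellogenin (Vg), the yolk precursor made in the fat body, had 5.44, 19.13 and 8.61 FPKM at day 30, against 31.38, 34.97 and 29.39 FPKM before exposure. Its groups did not overlap, as the choice of leading genes required. The means were 11.1 ± 7.17 FPKM at day 30 and 31.9 ± 2.83 FPKM before exposure (SD, n = 3 each). The log2 difference was -1.61 ± 0.32 (SE), with an adjusted p of 0.149. The highest day 30 value came from replicate 2, the library richest in gland transcripts, and without it the difference was -2.06 with an adjusted p of 0.00482. With the gland transcripts as a covariate the difference was -1.87 with an adjusted p of 0.00418. Over all fits without 1 library the difference ranged from -2.06 to -1.24. Vg was also called with array weights and without replicate 2 of both groups. It was not called with any other single library left out, or with another scaling or pseudocount. Of the 8 measured fat body markers 2 were lower and 0 higher at an unadjusted p under 0.05, beside 4.28% and 2.9% of all genes. In this list 7 of the 8 lay below 0, with a median of -0.38. The other lower member was LOC726783, also described as a vitellogenin, with 6.73, 9.74 and 9.08 FPKM at day 30 against 12.3, 9.05 and 15.01 FPKM before exposure, which overlap. The summed fat body markers also overlapped, at 1600.9, 2458.0 and 2321.3 FPKM at day 30 and 2035.2, 2293.0 and 2475.0 FPKM before exposure. In these bulk samples, fewer cells of a type and less RNA per cell cannot be told apart.

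**Figure D2:**
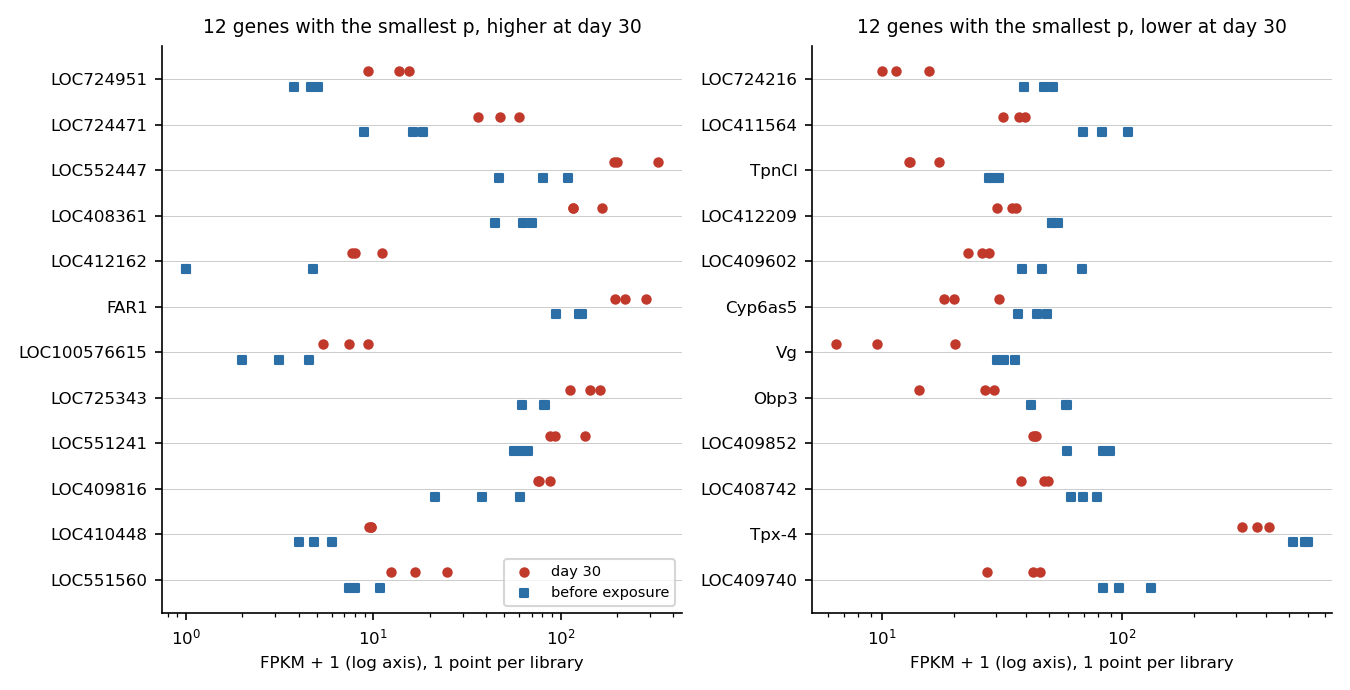
FPKM + 1 on a log axis in each day 30 library (red circles) and each before-exposure library (blue squares) for the 12 named genes per direction with the smallest p. In all 24 genes the 3 day 30 points lie apart from the 3 before-exposure points, as the rule for choosing them required. LOC412162 is listed at 0 in before-exposure replicates 1 and 3.

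Of the 12 leading higher genes, 4 act in lipid synthesis or the peroxisome, and they were put together here after their values were seen. LOC724951, 1-acyl-sn-glycerol-3-phosphate acyltransferase beta, which makes phosphatidic acid, had 14.51, 12.69 and 8.39 FPKM at day 30 against 3.66, 4.08 and 2.77 FPKM before exposure. Its log2 difference was 1.49 ± 0.25 (SE, adjusted p = 0.101). Fatty acyl-CoA reductase 1 (FAR1), which reduces fatty acyl-CoA to fatty alcohols, had 219.22, 284.26 and 193.02 FPKM at day 30 against 94.02, 124.35 and 129.78 FPKM before exposure. LOC725343, alkyldihydroxyacetonephosphate synthase, joins such alcohols into ether lipids in the peroxisome. It had 143.05, 161.07 and 110.73 FPKM at day 30 against 61.2, 80.85 and 81.51 FPKM before exposure. LOC551241, the peroxisomal membrane carrier PMP34, had 92.03, 134.49 and 87.14 FPKM at day 30 against 55.45, 60.89 and 66.24 FPKM before exposure. All 3 of these were highest in day 30 replicate 2, and their log2 differences were 0.99 ± 0.22, 0.88 ± 0.21 and 0.75 ± 0.18 (SE), in that order.

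Of the 21 measured genes of fatty acid synthesis and modification, 9 were higher and 3 lower at day 30 at an unadjusted p under 0.05, beside 2.9% and 4.28% of all genes, while the median of the list was only 0.09. Some higher members are given here in the order of the pathway. ATP-citrate synthase (LOC550686), which supplies acetyl-CoA, had 141.61, 207.03 and 126.2 FPKM at day 30 against 83.98, 104.08 and 107.04 FPKM before exposure. Acetyl-CoA carboxylase (LOC552286), which commits it to fatty acids, had 77.49, 115.72 and 66.76 FPKM at day 30 against 47.67, 62.19 and 55.85 FPKM before exposure. Fatty acid synthase (LOC412815), which builds the chain, had 255.22, 466.28 and 240.44 FPKM at day 30 against 169.65, 232.24 and 188.44 FPKM before exposure. In these 3 enzymes each day 30 library lay above every before-exposure library, and day 30 replicate 2 was again highest. Among the chain-lengthening enzymes, LOC724552 had 41.46, 32.21 and 28.19 FPKM at day 30 against 5.01, 11.09 and 13.31 FPKM before exposure, a log2 difference of 1.77 ± 0.49 (SE). A further elongase, LOC409638, lay the other way, at 57.36, 44.47 and 55.1 FPKM at day 30 against 72.18, 80.67 and 99.2 FPKM before exposure. Desaturases, which place double bonds, also pointed both ways. LOC412166 had 455.74, 405.66 and 355.43 FPKM at day 30 against 221.58, 309.29 and 281.8 FPKM before exposure, and LOC107965749 had 14.97, 19.38 and 18.08 FPKM at day 30 against 20.72, 28.86 and 27.13 FPKM before exposure. The 9 higher members became 4 without before-exposure replicate 1 and 5 without day 30 replicate 2. With the gland transcripts as a covariate 7 members were higher and 3 lower.

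Lipid carriers and other lipid enzymes stood on both sides. Clavesin-2 (LOC552447), a lipid-binding protein of the CRAL-TRIO family, had 199.68, 331.41 and 190.93 FPKM at day 30 against 45.97, 108.74 and 79.18 FPKM before exposure. LOC408361, described as like the alpha-tocopherol transfer protein of the same family, had 114.96, 165.18 and 115.1 FPKM at day 30 against 43.79, 69.68 and 62.35 FPKM before exposure. A gene with the same description, LOC409740, was opposite, with 44.61, 26.37 and 41.63 FPKM at day 30 against 82.85, 96.04 and 131.66 FPKM before exposure. The log2 differences were 1.65 ± 0.35 for clavesin-2, 1.16 ± 0.25 for LOC408361 and -1.45 ± 0.33 for LOC409740 (SE), with adjusted p between 0.216 and 0.252. LOC411564, described as nose resistant to fluoxetine protein 6 after a Caenorhabditis elegans membrane protein, had 36.37, 30.93 and 38.6 FPKM at day 30 against 68.3, 81.71 and 105.15 FPKM before exposure. LOC408742, a fatty-acid amide hydrolase, an enzyme class that cleaves signalling lipids, had 46.65, 37.09 and 48.27 FPKM at day 30 against 60.4, 77.86 and 67.89 FPKM before exposure.

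Of the 11 measured photoreceptor markers, 8 lay above 0 and 3 below it, and 0 were called. Their summed level was 1243.7, 1276.5 and 1287.9 FPKM at day 30 against 364.3, 604.9 and 700.2 FPKM before exposure, a log2 ratio of 1.24. The groups did not overlap, and the two-sided exact permutation test gave p = 0.1, the smallest that 3 against 3 libraries allow (adjusted p = 0.45 over the 9 marker sums). Long wavelength sensitive opsin 1 (Lop1), the main visual pigment of green-sensitive photoreceptors, had 547.13, 741.84 and 663.31 FPKM at day 30 against 182.38, 285.87 and 310.09 FPKM before exposure. The arrestin homolog LOC550791, of a family that switches off light-activated opsin, had 528.01, 337.92 and 419.26 FPKM at day 30 against 70.99, 181.44 and 211.83 FPKM before exposure. Lop1 and the arrestin made up most of the summed level in each library, so the sum largely repeats their values. Both differed by more than 1 on the log2 scale, at 1.35 ± 0.39 for Lop1 and 1.58 ± 0.41 for the arrestin (SE), with adjusted p of 0.325 and 0.27. Of the 11 members 4 were higher and 0 lower at an unadjusted p under 0.05, beside 2.9% and 4.28% of all genes, with a median of 0.53 and a lowest log2 difference of -0.42, and the count of 4 ranged from 2 (without before-exposure replicate 1) to 6 (without before-exposure replicate 3). Chaoptin (LOC411864), a photoreceptor surface protein, had 20.62, 26.61 and 24.44 FPKM at day 30 against 10.22, 15.33 and 17.92 FPKM before exposure, without overlap, whereas blue-sensitive opsin (Blop) overlapped between the groups.

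Further genes with higher values, picked from the leading genes and from the receptor list after their values were seen, were not tested as a group. The carcinine transporter LOC410448, which in Drosophila takes part in recycling histamine, the photoreceptor transmitter, had 8.73, 8.51 and 8.73 FPKM at day 30 against 3.02, 3.85 and 5.0 FPKM before exposure. LOC409816, a homologue of MORN repeat-containing protein 4, which in Drosophila photoreceptors is known as retinophilin, had 75.3, 86.85 and 74.41 FPKM at day 30 against 20.26, 36.96 and 59.99 FPKM before exposure. LOC724471, a phospholipase C-like enzyme that cleaves phosphatidylinositol 4,5-bisphosphate, had 58.6, 46.42 and 35.2 FPKM at day 30 against 7.89, 15.35 and 17.53 FPKM before exposure. The histamine-gated chloride channel 2 (LOC551680) had 2.2, 2.11 and 2.36 FPKM at day 30 against 1.03, 1.2 and 1.25 FPKM before exposure. In each of these 4 genes every day 30 library exceeded every before-exposure library. For LOC410448, LOC409816 and LOC724471 the rule for choosing the leading genes required this. The part of the photoreceptor marker level in these values was not tested.

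All 22 measured muscle markers had a log2 difference below 0, with a median of -0.53, and 0 were called. At the unadjusted level 12 of them had a p under 0.05, beside 4.28% of all genes. Troponin C type I (TpnCI), the calcium sensor of the thin filament, had 16.3, 12.02 and 12.12 FPKM at day 30 against 26.98, 27.94 and 29.87 FPKM before exposure, a log2 difference of -1.03 ± 0.19 (SE, adjusted p = 0.137). Troponin I (TpnI), its inhibitory partner, had 68.99, 35.27 and 41.99 FPKM at day 30 against 75.92, 78.95 and 103.23 FPKM before exposure. Neither troponin overlapped between groups, which the choice of leading genes required of TpnCI, though day 30 replicate 1 came close in troponin I. Paramyosin (LOC409787), a thick filament protein, had 29.15, 13.48 and 18.46 FPKM at day 30 against 41.13, 32.26 and 38.38 FPKM before exposure. Twitchin (LOC409821), a giant muscle kinase, had 1.03, 0.95 and 1.24 FPKM at day 30 against 2.79, 2.09 and 2.74 FPKM before exposure. The muscle calcium channel subunit alpha-1 (LOC100578899), counted among ion channels, had 0.67, 1.95 and 2.77 FPKM at day 30 against 8.17, 3.34 and 5.2 FPKM before exposure. These low values too were ordered without overlap. The summed muscle markers were 585.8, 361.1 and 427.3 FPKM at day 30 against 620.7, 607.1 and 784.6 FPKM before exposure, which did not overlap (exact permutation p = 0.1, two-sided, the smallest possible, and adjusted p = 0.45 over the 9 marker sums). The count of 12 became 5 without day 30 replicate 2, 6 without before-exposure replicate 3 and 8 without day 30 replicate 3.

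**Figure D3:**
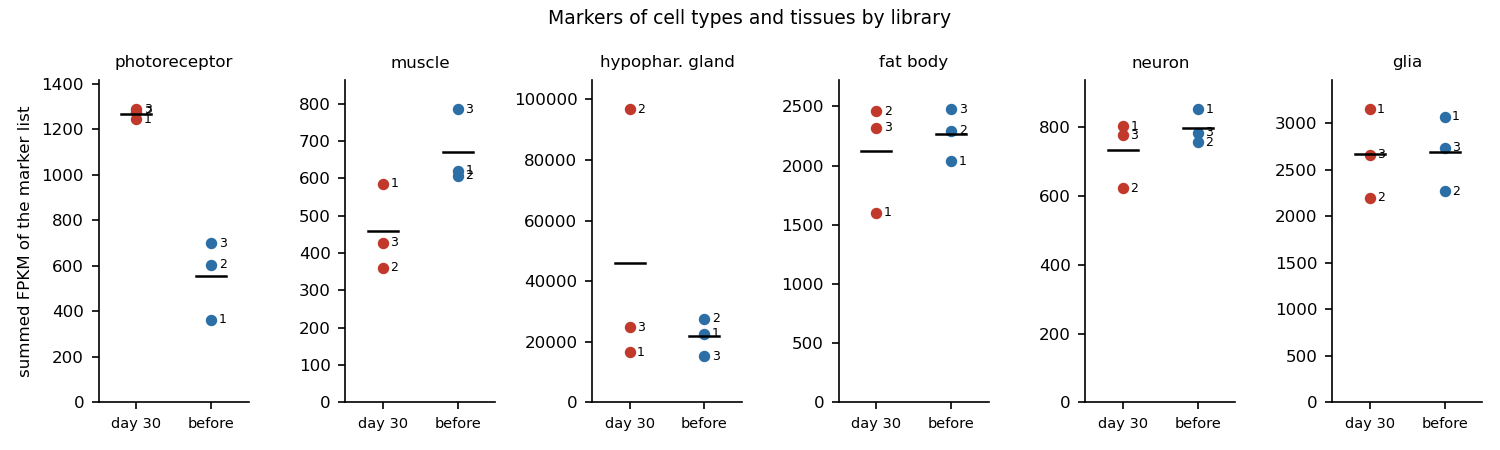
Summed FPKM of 6 marker lists in each library, with day 30 in red and before exposure in blue, the replicate number beside each point and a bar at the group mean. Photoreceptor and muscle sums do not overlap between the groups, at 1243.7 to 1287.9 FPKM against 364.3 to 700.2 FPKM for photoreceptors and 361.1 to 585.8 FPKM against 607.1 to 784.6 FPKM for muscle (day 30 against before exposure). The other 4 sums overlap, and the gland sum is highest in day 30 replicate 2.

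Among the enzymes that insects use to clear pyrethroids, more values near the threshold were lower than higher at day 30, as they were over all genes. Of 30 measured cytochrome P450 genes 1 was higher and 5 were lower at an unadjusted p under 0.05, beside 2.9% and 4.28% of all genes, with a median of -0.09. LOC412209, described as P450 6a17, had 29.15, 35.13 and 33.94 FPKM at day 30 against 50.51, 50.11 and 53.37 FPKM before exposure, with a log2 difference of -0.64 ± 0.12 (SE, adjusted p = 0.137). Cyp6as5, of a P450 subfamily that is expanded in bees, had 17.27, 19.01 and 29.95 FPKM at day 30 against 47.85, 35.83 and 43.41 FPKM before exposure. LOC413833, described as P450 4C1, had 22.66, 12.22 and 21.02 FPKM at day 30 against 32.71, 46.4 and 54.45 FPKM before exposure. Each of these 3 was lower in every day 30 library, which the choice of leading genes required of LOC412209 and Cyp6as5. The higher member was LOC551560, described as P450 6k1, with 23.77, 15.8 and 11.52 FPKM at day 30 against 6.97, 9.93 and 6.44 FPKM before exposure.

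Of 13 measured glutathione S-transferases and esterases, 0 were higher and 4 were lower at an unadjusted p under 0.05, beside 2.9% and 4.28% of all genes. In this list 11 lay below 0, and the median was -0.37. A carboxylesterase (LOC726134) had 8.34, 13.73 and 10.06 FPKM at day 30 against 16, 18.51 and 20.63 FPKM before exposure, and esterase FE4 (LOC409171) had 69.49, 60.9 and 67.0 FPKM at day 30 against 79.88, 88.63 and 106.7 FPKM before exposure. Both were ordered without overlap. UDP-glycosyltransferases and ABC transporters, which conjugate and export, had 1 higher and 2 lower of 42 with a median of -0.01. Among 24 antioxidant and redox enzymes 2 were lower and 0 higher. These were thioredoxin peroxidase 4 (Tpx-4), a peroxide-reducing enzyme, with 316.68, 364.29 and 409.96 FPKM at day 30 against 581.91, 514.04 and 598.63 FPKM before exposure, and catalase (Cat), with 28.69, 41.48 and 35.12 FPKM at day 30 against 43.33, 52.74 and 61.62 FPKM before exposure. Neither overlapped, which the choice of leading genes required of Tpx-4, although the list as a whole had a median of 0.10.

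The target of the acaricide showed close levels in both groups. The voltage-gated sodium channel gene Para had 78.26, 57.05 and 79.29 FPKM at day 30 against 80.31, 64.27 and 72.04 FPKM before exposure, a log2 difference of -0.02 ± 0.18 (SE, 95% interval -0.41 to 0.36). The interval leaves room for a difference of about 0.4 either way. Of 19 measured voltage-gated ion channels 0 were higher and 1 was lower at an unadjusted p under 0.05, beside 2.9% and 4.28% of all genes. The lower one was the muscle calcium channel named above. The active zone gene bruchpilot (brp) had a mean of 29.5 ± 4.91 FPKM at day 30 and 32.3 ± 2.97 FPKM before exposure (SD, n = 3 each). Of the 12 neuron markers 11 lay below 0, with a median of -0.15. None had an unadjusted p under 0.05 in limma (0 of 12), and 2 did, both lower, after median-of-ratios scaling. In 3 of the 12 the libraries did not overlap and were lower at day 30, beside 7.02% of all genes.

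Genes of synaptic transmission gave few values near the threshold. The counts below, at an unadjusted p under 0.05, stand beside 2.9% higher and 4.28% lower of all genes. Of 13 nicotinic receptors and acetylcholinesterases, 1 was lower, acetylcholinesterase 2 (AChE-2), the enzyme that clears acetylcholine, with 61.03, 46.19 and 52.78 FPKM at day 30 against 83.6, 70.82 and 69.2 FPKM before exposure. Its groups did not overlap, the log2 difference was -0.48 ± 0.20 (SE) and the adjusted p was 0.646. In that list 11 members lay below 0 and 2 above it, with a median of -0.16. Of 34 neurotransmitter receptors 2 were higher and 0 lower, among them the histamine-gated channel given above. Most receptors lay lower, with 24 below 0, 10 above it and a median of -0.10. Of 47 genes of the synaptic vesicle and active zone 0 were higher and 2 lower, and the lower ones were neuroligin 2 (LOC410779), a synaptic adhesion protein, and LOC408959, described as a homologue of the vesicle-priming protein unc-13. Neuroligin 2 had 15.86, 15.47 and 22.23 FPKM at day 30 against 29.91, 29.5 and 32.67 FPKM before exposure, without overlap. Among 17 learning kinases and cAMP genes only protein kinase C (Pkc) reached an unadjusted p under 0.05, with 103.08, 109.73 and 131.36 FPKM at day 30 against 167.06, 137.2 and 140.71 FPKM before exposure. Of the 17, 13 lay below 0 and 4 above it, with a median of -0.06. Glia markers gave 1 lower of 8, an excitatory amino acid transporter (LOC412382).

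Neuropeptides and clock genes had medians below 0. Of 16 neuropeptide precursors 0 were higher and 3 lower at an unadjusted p under 0.05, beside 2.9% and 4.28% of all genes. Their median was -0.19. Diuretic hormone class 2 (LOC113218809) had 39.62, 34.3 and 52.33 FPKM at day 30 against 54.71, 61.27 and 62.11 FPKM before exposure, just without overlap. The other lower ones, prohormone-2 (LOC409314) and the pheromone biosynthesis-activating neuropeptide (Pban), overlapped. All 5 clock genes lay below 0, and 2 reached an unadjusted p under 0.05. Period (Per), a negative regulator in the clock loop, had 8.07, 9.4 and 7.93 FPKM at day 30 against 10.42, 17.53 and 16.67 FPKM before exposure, and cryptochrome 2 (Cry2), a repressor of the same loop, had 1.07, 2.63 and 0.97 FPKM at day 30 against 1.9, 2.72 and 3.99 FPKM before exposure. Per did not overlap between the groups and Cry2 did. The hour of sampling is not in the labels, and its part in the clock values was not tested. LOC409602, described as a circadian clock-controlled protein, had 21.96, 27 and 25.3 FPKM at day 30 against 37.54, 45.5 and 67.68 FPKM before exposure.

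Of 24 measured odorant-binding and chemosensory proteins and chemoreceptors, out of 123 in the table, 1 was higher and 4 were lower at an unadjusted p under 0.05. Among all genes 2.9% were higher and 4.28% lower at that level. Odorant binding protein 3 (Obp3), a carrier of small hydrophobic ligands, had 26.04, 28.51 and 13.36 FPKM at day 30 against 41.1, 58.42 and 57.58 FPKM before exposure, a log2 difference of -1.23 ± 0.24 (SE, adjusted p = 0.149). Chemosensory protein 2 (CSP2) had 13.57, 16.34 and 13.22 FPKM at day 30 against 27.24, 20.65 and 28.13 FPKM before exposure. Its relative CSP1 was the member on the higher side, with 178.32, 265.02 and 132.93 FPKM at day 30 against 113.86, 141.24 and 82.6 FPKM before exposure, which overlap. Of 28 cuticle and chitin genes 2 were higher and 3 lower. Cuticle protein 7 (LOC725557) had 4.21, 2.66 and 3.49 FPKM at day 30 against 1.18, 1.03 and 1.54 FPKM before exposure, while cuticular protein 6 (CPR6) had 6.81, 5.77 and 9.12 FPKM at day 30 against 15.36, 14.68 and 13.17 FPKM before exposure. The structural proteins of the cuticle therefore had no common direction.

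Core cellular machinery gave small differences, mostly above 0. Of 79 ribosomal protein genes and 48 nuclear genes of oxidative phosphorylation, 0 reached an unadjusted p under 0.05, with medians of 0.11 and 0.10. In these lists 66 of the 79 and 35 of the 48 lay above 0. Among all genes 2.9% were higher and 4.28% lower at that level. The 37 proteasome genes had a median of 0.12 with 1 higher and 0 lower, and 31 lay above 0. The 28 genes of glycolysis and the citric acid cycle had a median of 0.10 with 1 higher and 0 lower, and 23 lay above 0. Of the 27 genes of folding in the endoplasmic reticulum 26 lay above 0, with a median of 0.17 and 2 higher at an unadjusted p under 0.05. After median-of-ratios scaling the medians were 0.15 for folding, 0.09 for the proteasome and 0.09 for ribosomal proteins. Heat shock proteins and cytosolic chaperones gave 0 higher and 1 lower of 47, and the lower one, protein lethal(2)essential for life (LOC410857), a small heat shock protein, had 14.48, 6.65 and 10.32 FPKM at day 30 against 18.82, 15.82 and 21.26 FPKM before exposure. Of 21 immune genes 0 reached an unadjusted p under 0.05 in either direction. Defensin 1 (Def1), an antimicrobial peptide, had 502.94, 3817.1 and 726.0 FPKM at day 30 against 789.36, 798.47 and 482.7 FPKM before exposure, and its high library was day 30 replicate 2, the one highest in gland transcripts.

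Gland genes overlapped between the groups. Of 13 measured hypopharyngeal gland markers 1 was higher and 0 lower at an unadjusted p under 0.05, beside 2.9% and 4.28% of all genes. Their median was 0.50. Without 1 library that median ranged from -0.22, without day 30 replicate 2, up to 1.21, without day 30 replicate 1, where 3 members were higher. Mrjp4 was the higher one, with 26.67, 299.08 and 55.71 FPKM at day 30 against 1.6, 26.84 and 36.23 FPKM before exposure. Mrjp1, the most abundant royal jelly protein, had a log2 difference of 0.79 ± 0.78 (SE), and this ranged between -0.05 without day 30 replicate 2 and 1.45 without day 30 replicate 1.

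**Figure D4:**
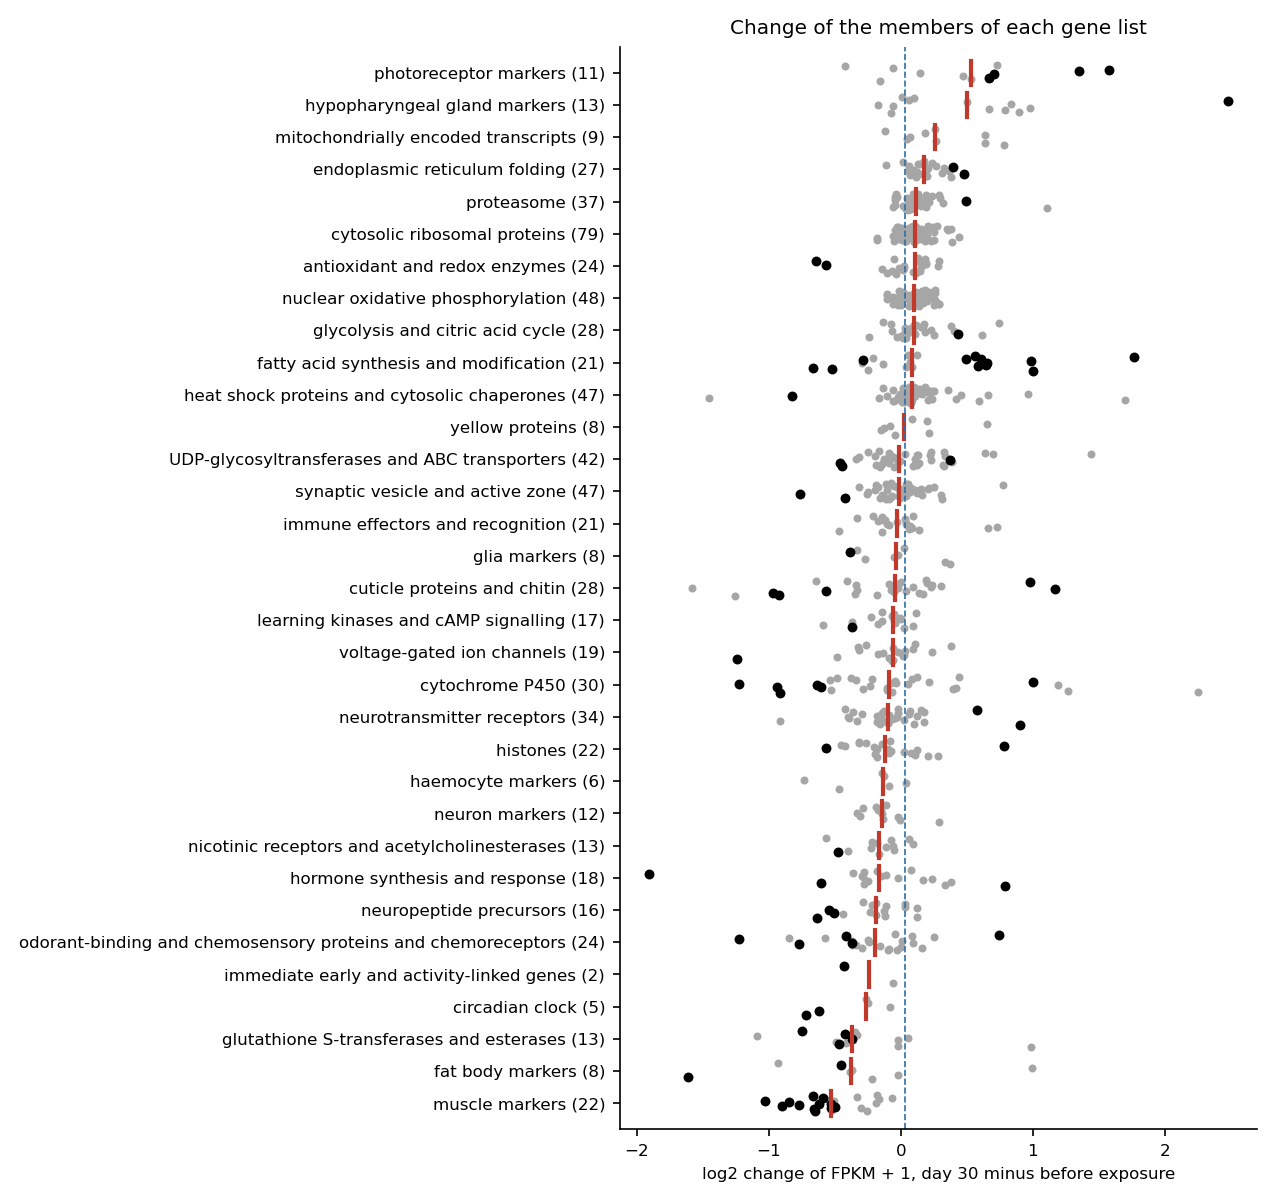
Each point is a measured member of 1 of 33 gene lists, placed by its log2 change of FPKM + 1 (day 30 minus before exposure), black at an unadjusted p under 0.05 and grey otherwise. Red bars mark list medians, the dashed line the median of all genes at 0.03, and the number of members stands in brackets. Photoreceptor markers have the highest median, 0.53, and muscle markers the lowest, -0.53.

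The other days after exposure place these values in time. Between day 30 and day 20, 0 of 7830 genes passed an adjusted p of 0.05 in limma (0.0%), while 503 had an unadjusted p under 0.05. Between day 30 and day 10, 737 genes (9.41%) were higher and 107 (1.37%) lower at day 30 at an adjusted p under 0.05. The median of all genes was 0.215 higher at day 30 than at day 10 on the log2 scale. After median-of-ratios scaling, which set that median to -0.004, 15 genes were higher and 45 lower. Gland markers summed to between 16627.7 and 96710.8 FPKM at day 30 and between 153379.5 and 229694.0 FPKM at day 10. A fit with the gland transcripts as a covariate called 5 genes. That covariate was the log2 sum of major royal jelly proteins 1 to 7, at 4233.6 to 36823.3 FPKM at day 30 and 94231.3 to 126259.7 FPKM at day 10. Its values did not overlap between these days, so the fit cannot tell gland level from day. The part of this gap in the calls was not tested further. The calls also depended on single libraries, with 0 genes called without day 10 replicate 2, 0 without day 30 replicate 3 and 15 without day 30 replicate 1, but 1247 without day 10 replicate 3 and 1240 without day 30 replicate 2. Where a day 10 library was left out, the lone one was assumed to vary like the other groups.

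Several genes near the threshold against before exposure passed the test against day 10. Vitellogenin had 5.44, 19.13 and 8.61 FPKM at day 30 against 47.84 and 64.99 FPKM at day 10, a log2 difference of -2.40 ± 0.35 (SE, adjusted p = 0.0157). LOC409602 was lower as well, with 94.18 and 79.74 FPKM at day 10 and a log2 difference of -1.77 ± 0.21 (SE, adjusted p = 0.0103). The juvenile hormone enzyme LOC724216 had 16.05 and 32.29 FPKM at day 10 and 37.13, 28.0 and 16.63 FPKM at day 20, and its day 30 values lay below all 5 of these without a call (adjusted p = 0.077 against day 10 and 0.651 against day 20). Para and brp at day 30 stood near the before-exposure level and above day 10, although 11 of 12 neuron markers lay below 0 against before exposure. Para had 25.41 and 40.74 FPKM at day 10, a log2 difference of 1.11 ± 0.20 (SE, adjusted p = 0.0254), and brp had 8.81 and 13.85 FPKM, a log2 difference of 1.32 ± 0.19 (SE, adjusted p = 0.0154). Of 12 neuron markers 10 were called higher at day 30 than at day 10, beside 9.41% of all genes. After median-of-ratios scaling 3 were, beside 15 of 7830 genes. Of 22 muscle markers 6 were called lower and 2 higher against day 10, beside 1.37% and 9.41% of all genes. After that scaling 5 were lower and 0 higher, beside 45 and 15 of 7830 genes. All calls against day 10 depended on single libraries, as given above.

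Lipid and photoreceptor genes had other courses. FAR1 had 287.43 and 269.0 FPKM at day 10 and 170.29, 90.04 and 142.17 FPKM at day 20, so that day 30 lay between these days in its mean of 232 ± 47.0 FPKM (SD, n = 3). Lop1 had 434.68 and 326.95 FPKM at day 10 and 1159.05, 380.85 and 323.42 FPKM at day 20, where 1 library exceeded all of day 30. Neither gene passed the test between day 30 and day 10 or day 20. These comparisons share the day 30 libraries with the comparison against before exposure and are not independent of it.

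**Figure D5:**
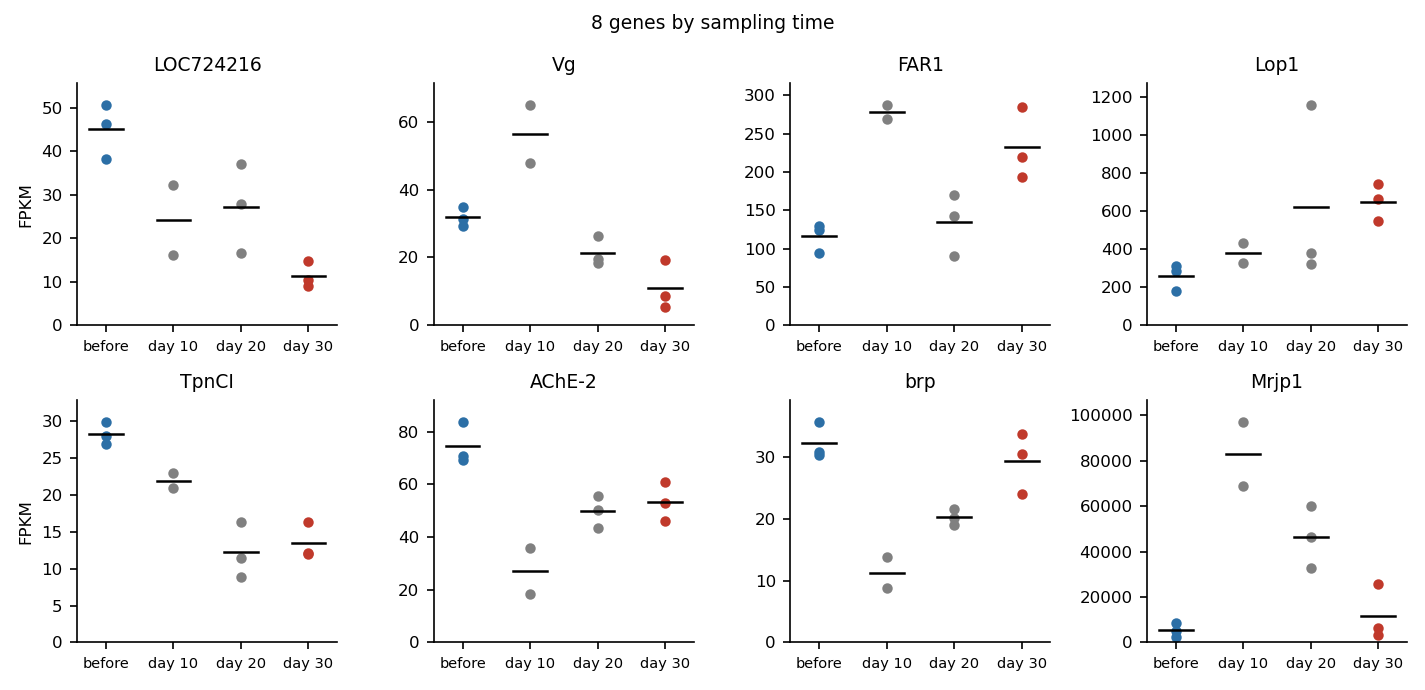
FPKM of 8 genes in every library at before exposure, day 10, day 20 and day 30, with a bar at each group mean. The group means of LOC724216 and Vg are lowest at day 30, TpnCI is lower at days 20 and 30 than before exposure, brp and AChE-2 are lowest at day 10, and Mrjp1 is highest at day 10.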

How the data were processed

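The deposited values are FPKM with 2 decimals, per the file headers. StringTie, HISAT2 2.1.0 and fastp 0.18.0 are the tools listed in the submitters' processing notes. Genome build and strandedness are not given in the sources, so overlapping genes may share reads. FPKM hold no read counts, so depth is unknown and no counting error is given. Of 12 FPKM columns, 1 was not used. All 9935 NCBI gene numbers in the table matched RefSeq's gene table (assembly Amel_HAv3.1).

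Genes averaging 1 FPKM or more over 11 libraries were tested in R 4.3.3 with limma 3.58.1, on log2(FPKM + 1), which understates changes of low genes, with 1 fit of 4 group means, a mean-variance trend and Benjamini-Hochberg adjustment over 7830 genes. The script was tested on simulated data. SD are between libraries and SE are moderated.

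The comparison and the 33 gene lists, matched by symbol and description, were chosen with earlier results of these data known. Named genes are the 12 per direction with the smallest p among named genes that averaged 5 FPKM or more in the higher group and had libraries that do not overlap, given as values because none passed, the 2 members per list with the smallest p, and Para, AChE-2, Mrjp1, Vg, brp, LOC408452 and LOC413083. Further list members and genes called under an alternative were named after their values were seen. Alternatives were the pseudocount (0.1 and 5), the filter, 2 scalings, the trend, array weights, a fit of 2 groups, a replicate block, a gland covariate and leaving out libraries.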

Additional observations from a re-analysis of the deposited data

Results flagged for a closer look

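For 24 of the 89 named genes, the level at day 30 differed from that at day 10 at an adjusted p under 0.05 in limma. This is a test of the difference between these days. Over all genes 9.41% were called higher and 1.37% lower at day 30. Most named genes were chosen by their values in the day 30 libraries, which this test shares, so the 24 are not an independent count. Their differences rest on 2 day 10 libraries. Of the 24, 10 were called after median-of-ratios scaling, 1 with the gland covariate, 23 with array weights and 20 with the replicate block. Leaving out 1 library kept 0 calls without day 10 replicate 2 and 15 without day 10 replicate 3, where the lone day 10 library was assumed to vary like the other groups. It kept 5 without day 30 replicate 1, 22 without day 30 replicate 2 and 0 without day 30 replicate 3.

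Lower at day 30 than at day 10 on the log2 scale were LOC411564 by a difference of -1.63, LOC412209 of -0.57, LOC409602 of -1.77, Vg of -2.40, Obp3 of -1.0, LOC409852 of -1.26, LOC408742 of -0.56 and LOC409740 of -1.60. Among list members, LOC726134 (a carboxylesterase) had -0.98, LOC410857 (a small heat shock protein) -1.22, LOC409638 (an elongase) -1.01, LOC100576326 (phenoloxidase-activating factor 2) -0.92, LOC409821 (twitchin) -0.69, LOC725344 (histone H2B) -1.41 and Mrjp1 -3.35. Of the genes higher at day 30, LOC551883 (a T-type calcium channel) had a difference of 0.79, AChE-2 of 1.02, LOC409314 (prohormone-2) of 0.72, LOC410353 (an Elav-like protein) of 0.77, LOC725131 (futsch, which binds microtubules in axons) of 1.29, Eaat-2 (a glutamate transporter) of 1.23, Para of 1.11 and brp of 1.32. Cuticle protein 7 (LOC725557) was also higher, by 0.99.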

How the results depend on the processing

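Between day 30 and before exposure, 0 genes were called in the analysis reported and with another pseudocount, filter, scaling, the trend left out or the replicate block, 39 (7 higher, 32 lower) with array weights, and 1, lower, each with the gland covariate (Vg), with only these 2 groups (LOC724216) and with replicate 2 of both groups left out (Vg), an alternative chosen after seeing the data. Leaving out 1 library gave 0 to 2 calls (0 to 1 higher, 0 to 1 lower): caltractin (LOC412449, 2.60) and apidermin 2 (Apd-2, -1.17) without before-exposure replicate 1, LOC412162 without before-exposure replicate 2, myophilin (LOC408532, -1.22) without day 30 replicate 1, and Vg without day 30 replicate 2.

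Between day 30 and day 20, 4 genes were called with the gland covariate, 14 with array weights and 1 with only these groups, and 0 to 0 without 1 library. Between day 30 and day 10, where 844 were called, the count was 501 with no filter, 60 with median-of-ratios scaling, 150 with quantile normalization, 414 with the replicate block, 5 with the gland covariate, 406 with no trend, 1517 with array weights, 15 with only these groups, and 0 to 1247 without 1 library. The causes were not tested.

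Same-numbered libraries of day 30 and before exposure deviated together with r of 0.043, 0.031 and 0.143, so the numbers were not taken as pairs, and the block gave 591 genes at an unadjusted p under 0.05 against 562.

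Of 89 named genes 7 changed sign somewhere. LOC551232 was 0.56 with array weights, 0.26 without replicate 2 of both groups and -0.51 to 0.18 without 1 library. Para was 0.08 with the gland covariate, 0.10 with array weights, 0.05 without replicate 2 of both groups and -0.10 to 0.13 without 1 library. COX3 was -0.31, ATP6 -0.24 and brp 0.04 with array weights. ATP6 was -0.04 to 1.2, Mrjp1 -0.05 to 1.45 and LOC413083 -0.78 to 2.56 without 1 library, and LOC413083 was -0.12 with the gland covariate.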

Other observations

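Both cytochrome P450 genes named without regard to their p, LOC408452 and LOC413083, are given as values. LOC408452, described as P450 9e2, averaged 589 ± 13.1 FPKM at day 30 and 722 ± 101 FPKM before exposure (SD, n = 3 each), with a log2 difference of -0.28 ± 0.16 (SE, adjusted p = 0.731). LOC413083, described as P450 6a14, had a log2 difference of 1.19 ± 1.43 (SE, adjusted p = 0.85) with overlapping groups. Haemocyte markers summed to 143.8, 144.7 and 142.3 FPKM at day 30 and 144.2, 168.2 and 226.4 FPKM before exposure, with overlap. Mitochondrially encoded transcripts summed to between 6208.9 and 6856.3 FPKM at day 30 and between 5365.6 and 6839.6 FPKM before exposure. Yellow proteins, related to the royal jelly proteins, gave 0 higher and 0 lower of 8 at an unadjusted p under 0.05. Among 22 histone genes 1 was higher and 1 lower at that level, beside 2.9% and 4.28% of all genes. Histone H1 (LOC725238), a linker histone, had 96.46, 124.11 and 112.08 FPKM at day 30 against 154.28, 162.87 and 176.34 FPKM before exposure, without overlap. The transcription factor kayak (LOC724169), the insect relative of Fos, had 40.95, 37.15 and 53.43 FPKM at day 30 against 57.65, 54.97 and 63.95 FPKM before exposure, also without overlap.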
